A study of Saccharomyces cerevisiae with 24 samples.

Results

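The comparison is that of *rpb1-CTD20*, a budding yeast strain in which the largest subunit of RNA polymerase II (RNAPII) ends after 20 heptapeptide repeats, with wild type. It rests on the 2 arrays titled *rpb1-ctrunc-CTD1-20* and the 8 arrays titled as wild type with a k label, together 10 of the 24 arrays of the series, and on all 6388 gene probes of the array design. The series measured mRNA of CTD truncation mutants on dual-channel arrays, each sample against 1 common wild type RNA, to ask how much of the CTD normal transcription needs. The 2 *rpb1-CTD20* samples came from separate cultures, with the sample in Cy3 on array a and in Cy5 on array b, and the wild type arrays held 4 of each kind. All samples were labelled BY4742 and were grown in synthetic complete medium with 2% glucose at 30°C to mid-log phase. The truncations were made at the *RPB1* locus by a stop codon followed by a nourseothricin resistance marker, and *RPB1-CTDWT*, with 26 repeats by its label, has the marker behind its own stop codon. *RPB1-CTDWT* and *rpb1-CTD13*, with 13 repeats, had 2 arrays each and serve below as further points of comparison. The paper names *RPB1-CTDWT* as its control for gene expression, and words its cut-offs as a comparison with wild type. The study's strain list holds 2 *rpb1-CTD20* strains that differ in their markers: 1 keeps *LYS2*, lacks *MET17* and carries markers in place of *CAN1* and *LYP1*, and the other has none of these changes listed. Which of them was arrayed is not given in the sources used here.

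The CTD is a tail of repeated heptapeptides at the end of Rpb1, the largest RNAPII subunit, which is encoded by *RPO21* (also called *RPB1*). Kinases and phosphatases change the phosphorylation of its serines during the transcription cycle, and capping, elongation and 3′ end factors bind to it. It also contacts Mediator, the complex that links activators to RNAPII. Yeast survives with fewer repeats than it normally has, down to a minimum below which cells die.

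The arrays had enough signal for most genes. Of the gene probes, 95.4% and 86.1% lay above the 99th percentile of the empty spots on *rpb1-CTD20* arrays a and b, against at least 95.6% on each wild type array, so that array b was the dimmest of the 10 relative to its empty spots. Its empty spots reached 133 scanner units, against 55.8 to 107 on the wild type arrays. Against the 14 spiked-in control probes, the level of all genes before normalization was 0.06 higher in *rpb1-CTD20* than in wild type on the log2 scale (exact two-sided permutation test over arrays, p = 0.733; the smallest p that 45 splits allow is 0.0222). The splits mixed the dyes, and on the wild type arrays this level was -0.52 to -0.22 in Cy3 and 0.18 to 0.47 in Cy5. This p therefore cannot show that the level was unchanged. Within a dye the difference was -0.12 in Cy3 and 0.24 in Cy5. Array a (-0.45) lay within the wild type range of its dye and array b (0.51) above it. A loess curve drawn through the spiked-in controls instead of the genes, chosen after the data were seen, placed the median of all genes at -0.32 in the fit. Array medians were then -0.75 and -0.48 in *rpb1-CTD20*, against -0.57 to -0.11 in wild type (exact permutation test over the same splits, p = 0.0667). All changes below are relative to a loess curve through the genes of each array, and so to genes of similar brightness. The 6 small rises of *CTP1*, *SIR2*, *CRD1*, *GAS2*, *TDA4* and the probe SCAB003287 had the opposite sign on the curve through the spiked-in controls. On that curve 6143 of all 6388 probes were below 0, and these 6 lay above the median of all genes.

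Before the results, the strain markers need to be given, because they go against the label. BY4742 is a strain of mating type α that lacks *HIS3*, *LEU2*, *LYS2* and *URA3* and keeps *MET17*, also called *MET15*. Values per array are the log2 ratio of sample over reference with the fitted dye effect removed. *LYS2*, which encodes α-aminoadipate reductase of lysine synthesis, had 2.76 and 3.48 in *rpb1-CTD20*, against -0.02 to 0.14 in wild type, with a median of 0.05. *MET17*, which encodes the enzyme that makes homocysteine from O-acetylhomoserine, had -4.83 and -4.98 in *rpb1-CTD20*, against -0.01 to 0.18 in wild type, with a median of 0.07. The groups lay far apart for both genes, so that the *rpb1-CTD20* samples had a *LYS2* transcript and hardly any of *MET17*, the reverse of what the label names. The mean signal of the *MET17* probe was 105 scanner units in *rpb1-CTD20*, above background on 1 of the 2 arrays, against 4801 in wild type. For *LYS2* the mean signals were 2005 in *rpb1-CTD20* and 330 in wild type. Of the other marker genes, *CAN1*, *LYP1* and *URA3* overlapped wild type, and *HIS3* and *LEU2* lay just outside its range. *CAN1*, the arginine permease, differed by -0.07, *LYP1*, the lysine permease, by 0.03, *HIS3* by 0.10, *LEU2* by -0.16 and *URA3* by 0.01 on the log2 scale, with adjusted p of 0.13 to 0.96. Mean signals were 1567 in *rpb1-CTD20* and 2097 in wild type for *CAN1*, and 1915 and 3562 for *LYP1*. These signals were not normalized between arrays. The median signal of the gene spots was 495 and 626 on the *rpb1-CTD20* arrays, against 460 to 1184 in wild type. The listed *rpb1-CTD20* strain that keeps *LYS2* and lacks *MET17* carries markers in place of both permease genes. Neither listed strain thus matched the values in every marker, and the reason was not tested. The mating type genes matched the label. The α-factor gene *MF(ALPHA)1* had a mean signal of 22640 in *rpb1-CTD20* and 28690 in wild type, and 7 genes specific to a cells had mean signals of 78.1 to 166 in *rpb1-CTD20* and 104 to 254 in wild type.

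With 20 repeats, expression was close to wild type for nearly all genes. The quartiles of the change over all probes were -0.05 and 0.04 on the log2 scale, and 97.7% lay within 1.2-fold of wild type. With the fold change and p cut-offs of the study, 1.7 and 0.01, but with the p adjusted, which the methods do not state, 6 probes or 0.0939% were called, 1 increased (0.0157%) and 5 decreased (0.0783%). At the adjusted p alone 24 probes passed, 0.376% of those tested, of which 11 (0.172%) were higher and 13 (0.204%) lower in *rpb1-CTD20*. At an unadjusted p under 0.05 there were 855 (13.4%). The adjusted p values in this text come from limma with Benjamini-Hochberg adjustment over all 6388 probes. The 2 *rpb1-CTD20* arrays lay on the same side of all 8 wild type arrays for 799 probes, 12.5%, with 386 (6.04%) above and 413 (6.47%) below. A *rpb1-CTD20* array deviated from the wild type mean by a median of 0.05 (a) and 0.05 (b) over all probes, where single wild type arrays deviated by 0.04 to 0.06. In bulk RNA a change in every cell and a change in some of the cells cannot be told apart.

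**Figure D1:**
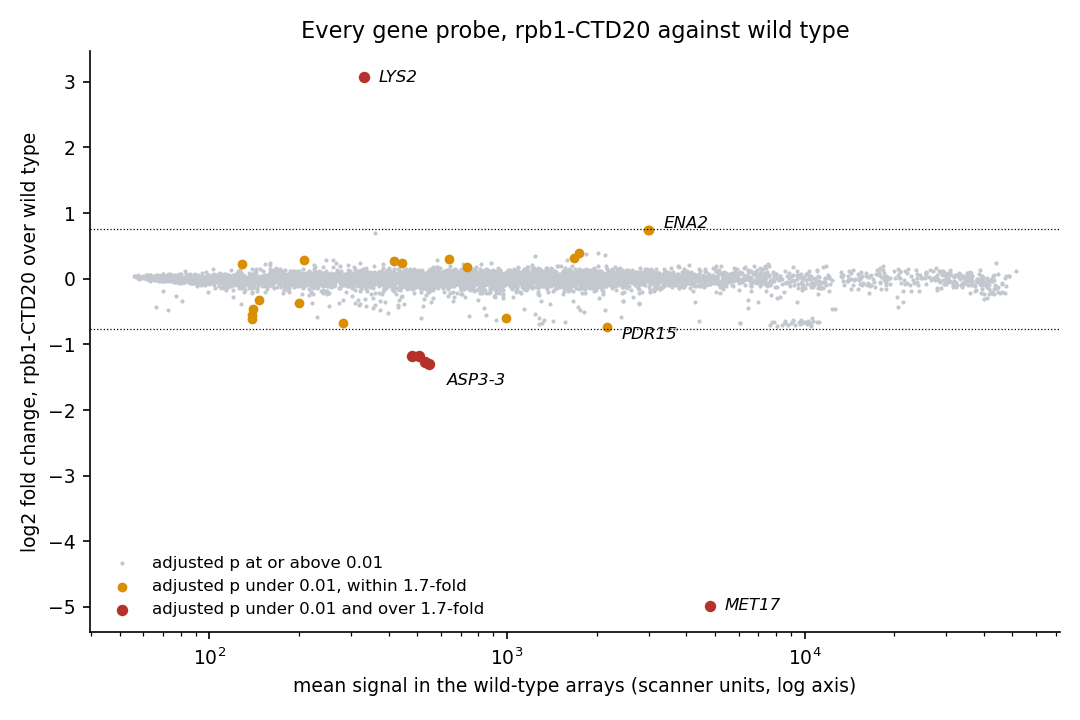
Log2 fold change of *rpb1-CTD20* over wild type against the mean signal of each of the 6388 gene probes in wild type (scanner units, log axis); dotted lines mark 1.7-fold. The 6 called probes stand apart, *LYS2* at 3.07 and *MET17* at -4.99, while 97.7% of the probes lie within 1.2-fold.

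The 6 called probes came from the strain markers, on chromosomes II (*LYS2*) and XII (*MET17*), and 1 further locus on chromosome XII. *LYS2* was increased by 3.07 on the log2 scale (SE 0.12, adjusted p = 2.8e-12) and *MET17* decreased by 4.99 (SE 0.08, adjusted p = 4.6e-19), a fold that rests in part on array b, where its signal was within background. The remaining 4 were *ASP3-3*, which encodes a secreted asparaginase used under nitrogen starvation, and 3 probes without a gene name here, SCAB004042, SCAB004045 and SCAB004047, whose identifiers lie within 8 of that of *ASP3-3*. *ASP3-3* had -1.85 and -1.61 in *rpb1-CTD20*, against -0.52 to -0.39 in wild type, with a median of -0.41, and fell by 1.30 (SE 0.05, adjusted p = 2.8e-12). SCAB004047, SCAB004045 and SCAB004042 fell by 1.27, 1.18 and 1.17 (adjusted p of 9.6e-15 to 2.7e-12). The yeast genome holds several near-identical copies of *ASP3* in tandem, and a probe for one may read them all, so that the 4 probes may not be separate measurements.

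Further probes next to *ASP3-3* moved the same way at lower signal. *YLR161W*, an uncharacterised reading frame 5 genes from *ASP3-3* in the RefSeq gene order, had -0.89 and -0.70 in *rpb1-CTD20*, against -0.24 to -0.10 in wild type (adjusted p = 2.1e-08). It was above background on neither *rpb1-CTD20* array and on all 8 wild type arrays, so that it was at least 1.52-fold lower. This bound sets the normalized sample signal in wild type against the lowest signal above background on the *rpb1-CTD20* arrays, or the probe's own where that was higher. SCAB004048, also above background on neither *rpb1-CTD20* array, had -0.56 and -0.64 in *rpb1-CTD20*, against -0.23 to -0.05 in wild type (adjusted p = 5.4e-06), and SCAB004046, above background on 1 of the 2 arrays, fell by 0.56 (adjusted p = 3.3e-08).

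The fall at *ASP3* was shared with the strain that keeps the full-length CTD. *RPB1-CTDWT* had -1.77 and -1.84 for *ASP3-3*, overlapping *rpb1-CTD20*, and the difference between *rpb1-CTD20* and *RPB1-CTDWT* was 0.08 (SE 0.07, adjusted p = 0.94). *rpb1-CTD13* had -0.54 and -0.51, near wild type, and the difference of *rpb1-CTD20* from it was -1.20 (SE 0.07, adjusted p = 9.5e-10). With 12 repeats *ASP3-3* had 0.32 to 0.40, and with 11 repeats 0.85 to 1.01. Over CTD length the level of *ASP3-3* thus had its lowest values at 20 and 26 repeats, and wild type, which has the full-length CTD too, lay above both. Each strain's own values are given, since the wild type arrays serve all of these strains as control.

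**Figure D2:**
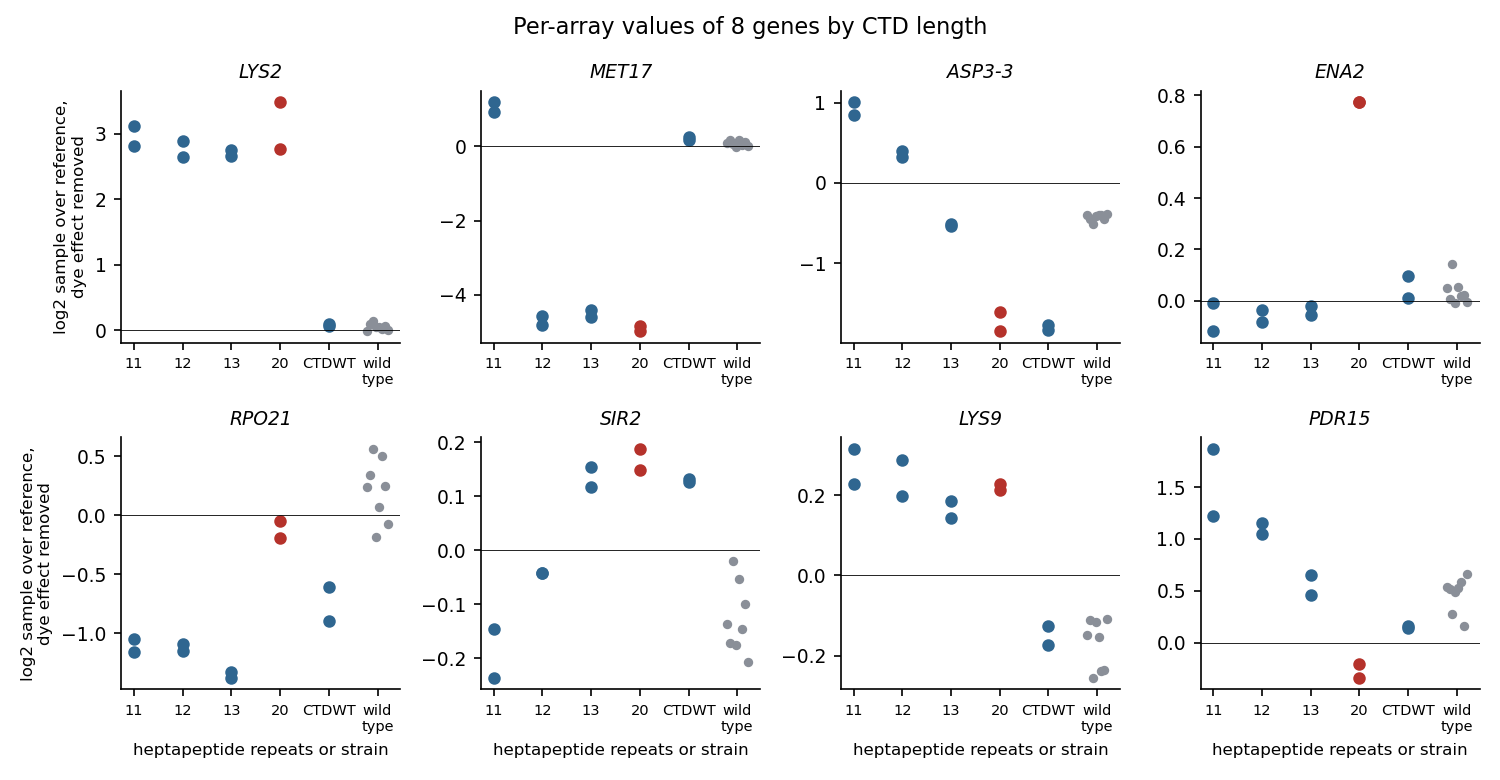
Log2 ratio of sample over reference with the dye effect removed for 8 genes, 1 point per array, in strains with 11, 12, 13 and 20 repeats, in *RPB1-CTDWT* and in the 8 wild type arrays. The red points are *rpb1-CTD20*: *ASP3-3* lies with *RPB1-CTDWT*, *LYS2* and *MET17* with *rpb1-CTD13*, and *ENA2* apart from every other strain shown.

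The *ENA2* locus was higher in *rpb1-CTD20* than in wild type and than in the strains with 11, 12, 13 and 26 repeats. *ENA2*, on chromosome IV, encodes a sodium pump of the plasma membrane and belongs to a tandem family of near-identical genes. It had 0.77 and 0.77 in *rpb1-CTD20*, against -0.01 to 0.14 in wild type, with a median of 0.02. The rise of 0.74 (SE 0.04, adjusted p = 1.4e-10) fell just short of 1.7-fold. The unnamed probe with the next identifier, SCAB001049, rose by 0.74 as well (adjusted p = 7.7e-10). *ENA2* was 0.72 above *RPB1-CTDWT* (SE 0.05, adjusted p = 2.8e-08) and 0.81 above *rpb1-CTD13* (SE 0.05, adjusted p = 2.2e-09), where the arrays had 0.01 and 0.09 in *RPB1-CTDWT* and -0.02 and -0.06 in *rpb1-CTD13*. It had -0.04 and -0.08 with 12 repeats and -0.12 and -0.01 with 11, and *rpb1-CTD20* was called 0.84 above both. *ENA5*, the neighbouring member of the family, had 0.15 and 0.17 in *rpb1-CTD20*, against -0.13 to 0.16 in wild type, and did not pass (adjusted p = 0.23). The other genes within 6 positions of *ENA2* that were measured had changes of -0.09 to 0.12, none with an adjusted p under 0.01.

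The other rises past the adjusted p were small, with no overlap between the groups. *LYS9*, which encodes saccharopine dehydrogenase of lysine synthesis, had 0.21 and 0.23 in *rpb1-CTD20*, against -0.26 to -0.11 in wild type, a rise of 0.39 (SE 0.05, adjusted p = 8.9e-05). The next rises all had the opposite sign on the curve through the spiked-in controls, except that of SCAB000942. The median of all genes was -0.32 on that curve. *SIR2*, which encodes the NAD-dependent histone deacetylase of silent chromatin, had 0.19 and 0.15 in *rpb1-CTD20*, against -0.21 to -0.02 in wild type, a rise of 0.29 (SE 0.04, adjusted p = 0.00041). *SIR2* had 0.13 and 0.13 in *RPB1-CTDWT* and 0.15 and 0.12 in *rpb1-CTD13*, next to *rpb1-CTD20*. *CTP1*, the citrate carrier of mitochondria, rose by 0.27 (adjusted p = 0.00031), and it was also 0.34 above *RPB1-CTDWT* (adjusted p = 0.0013). *GAS2*, a glucanosyltransferase of the spore wall, rose by 0.28 (adjusted p = 1e-04), *CRD1*, cardiolipin synthase, by 0.24 (adjusted p = 0.0078) and *TDA4*, of unknown function, by 0.18 (adjusted p = 0.007). The calls of *CRD1* and *TDA4* were lost in 17 and 20 of 26 alternatives. *CRD1* lies 2 genes from *RPO21* in the RefSeq gene order. *BPL1* and *SCM3*, the genes on either side of *RPO21*, differed by 0.12 and 0.15 (adjusted p = 0.28 and 0.094). The unnamed probes SCAB003287 and SCAB000942 rose by 0.32 and 0.23 (adjusted p = 0.0042 and 0.00041). With the k label of the wild type arrays as a random block, *CRD1*, *TDA4* and SCAB003287 no longer passed (adjusted p of 0.023 to 0.027).

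The remaining falls took in a drug pump and a vitamin gene. *PDR15*, a drug transporter of the plasma membrane under the activator Pdr1, had -0.34 and -0.21 in *rpb1-CTD20*, against 0.16 to 0.66 in wild type, with a median of 0.52, and fell by 0.74 (SE 0.13, adjusted p = 0.007). *YTP1*, a membrane protein of unknown function, had -0.37 and -0.30, against 0.15 to 0.45 in wild type, and fell by 0.67 (SE 0.07, adjusted p = 2.3e-05). *SNZ1*, of vitamin B6 synthesis, had -0.44 and -0.53, against -0.07 to 0.30 in wild type, and fell by 0.60 (SE 0.08, adjusted p = 0.00029). All 3 lay below wild type on both arrays, and *SNZ1* had -0.29 and -0.31 in *RPB1-CTDWT* as well. *HFM1*, a meiotic DNA helicase, fell by 0.37 (adjusted p = 0.00045), with 1 of the 2 *rpb1-CTD20* arrays above background, and *YLR031W*, of unknown function, fell by 0.33 (adjusted p = 0.0077). The calls of *PDR15* and *YLR031W* were lost in 14 and 15 of 26 alternatives, among them the k label as a random block (adjusted p = 0.025 and 0.023).

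**Figure D3:**
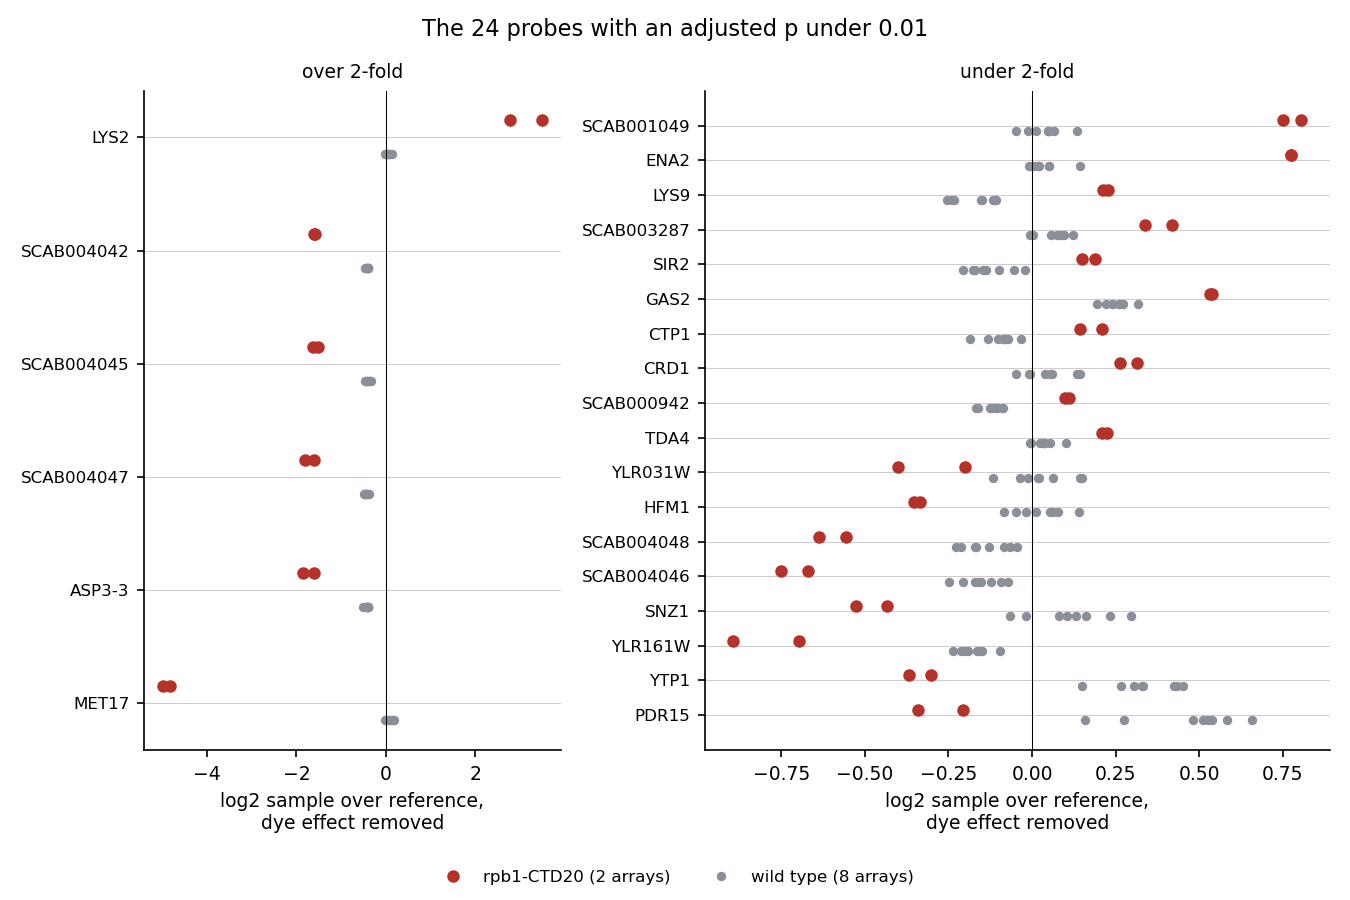
The 24 probes with an adjusted p under 0.01, 1 point per array (red, the 2 *rpb1-CTD20* arrays; grey, the 8 wild type arrays), as log2 sample over reference with the dye effect removed; the left panel holds the 6 probes beyond 2-fold. The 2 groups do not overlap for any of the 24 probes. The rises of *SIR2*, *CTP1*, *CRD1*, *GAS2*, *TDA4* and SCAB003287 turn negative on the curve through the spiked-in controls, where the median of all probes is -0.32.

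Gene groups were described by counts, and of 48 groups with 1088 genes 5 had any member past the adjusted p. These were the strain markers, lysine synthesis, sulfur and methionine, vitamin B6 and thiamine, and multidrug resistance. The strain markers share *LYS2* and *MET17* with the next 2 groups, so that the members past it were *LYS2*, *LYS9*, *MET17*, *SNZ1* and *PDR15*. Over all probes the share past it was 0.376%. The medians of the 48 groups ran from -0.23 to 0.18, 45 of them within 0.1 of 0, where the median of all probes was 0.00. Lysine synthesis had the highest median, 0.18, and the α-specific genes the lowest, -0.23. At an unadjusted p under 0.05, 5.95% of all probes were higher and 7.44% lower in *rpb1-CTD20*, and counts at that threshold are to be read against these shares.

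All 9 measured genes of lysine synthesis had a positive change, though 3 of 9 did on the curve through the spiked-in controls, where 245 of all 6388 probes were above 0. Relative to the median of all genes the group's median was 0.15 on that curve. *LYS2* and *LYS9* rose, 7 of the 9 had an unadjusted p under 0.05 and none was lower. *LYS20*, a homocitrate synthase at the start of the pathway, had 0.34 and 0.30 in *rpb1-CTD20*, against -0.15 to 0.05 in wild type, a difference of 0.37 (SE 0.07, adjusted p = 0.012). *LYS12*, homoisocitrate dehydrogenase, had a difference of 0.20, *LYS1*, the last enzyme, of 0.18, *LYS21*, the other homocitrate synthase, of 0.14 and *LYS5*, which activates Lys2, of 0.14 (adjusted p of 0.093 to 0.17). *LYS14*, the activator of the pathway, and *LYS4*, homoaconitase, had 0.10 and 0.06 and overlapped wild type. The median of the group was 0.01 in *RPB1-CTDWT* and 0.15 in *rpb1-CTD13*, which has the *LYS2* signal too, and 0.37 and 0.44 with 12 and 11 repeats. In methionine and sulfur metabolism, 38 genes, *MET17* fell and no other gene passed, while 8 had an unadjusted p under 0.05 upwards and 2 downwards, *MET17* among them. *MHT1*, a homocysteine methyltransferase, was nearest to the threshold with 0.08 and 0.09 in *rpb1-CTD20*, against -0.25 to -0.02 in wild type (difference 0.20, adjusted p = 0.05).

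The multidrug resistance genes under Pdr1 had a median of -0.12 over 14 genes, and one of -0.10 relative to all genes on the curve through the spiked-in controls. *PDR15* fell, 9 of the 14 had an unadjusted p under 0.05 downwards and 1, *PDR1* itself, upwards. *PDR5*, the main drug efflux pump, had -0.16 and -0.22 in *rpb1-CTD20*, against 0.26 to 0.63 in wild type, a difference of -0.65 (SE 0.12, adjusted p = 0.012). *PDR3*, an activator paralogous to *PDR1*, and *RSB1*, a sphingoid base transporter, lay below every wild type array with differences of -0.24 and -0.30 (adjusted p = 0.026 and 0.03). The group had a median of -0.07 in *RPB1-CTDWT*, 0.02 in *rpb1-CTD13* and 0.28 and 0.41 with 12 and 11 repeats.

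In vitamin B6 and thiamine synthesis *SNZ1* fell, and 7 of 19 genes had an unadjusted p under 0.05, all downwards, but the group's median of -0.07 became 0.00 relative to all genes on the curve through the spiked-in controls. Its partner *SNO1* and the related *SNZ3* had differences of -0.36 and -0.28 (adjusted p = 0.084 and 0.032). Of the 31 genes of the iron regulon none passed, 8 had an unadjusted p under 0.05 and all 8 were lower. Relative to the wild type mean, the group's median was -0.060 and -0.082 on the *rpb1-CTD20* arrays, overlapping single wild type arrays (-0.073 to 0.087). *FIT2* and *FIT3*, cell wall proteins that hold iron carriers, differed by -0.53 and -0.48, and *FRE1*, a ferric reductase, by -0.33 (adjusted p of 0.09 to 0.11). The mitochondrial ribosomal proteins, 71 genes, had a median of -0.07, and 64 of them were below 0; on the curve through the spiked-in controls the median was -0.10 relative to all genes. None passed the adjusted p, and 15 had an unadjusted p under 0.05, all downwards. *MRPL44* and *MRPL51* came nearest, with differences of -0.24 and -0.19 (adjusted p = 0.032 and 0.025). The same group had a median of -0.05 in *RPB1-CTDWT*. On single arrays, relative to the wild type mean, its median was -0.084 and -0.063 in *rpb1-CTD20*, just below the -0.055 to 0.102 of wild type. The α-specific genes had 3 of 4 at an unadjusted p under 0.05, all downwards, and none past the adjusted p. *MF(ALPHA)2* had -0.52 and -0.37 in *rpb1-CTD20*, against -0.15 to 0.37 in wild type (difference -0.46, adjusted p = 0.18).

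**Figure D4:**
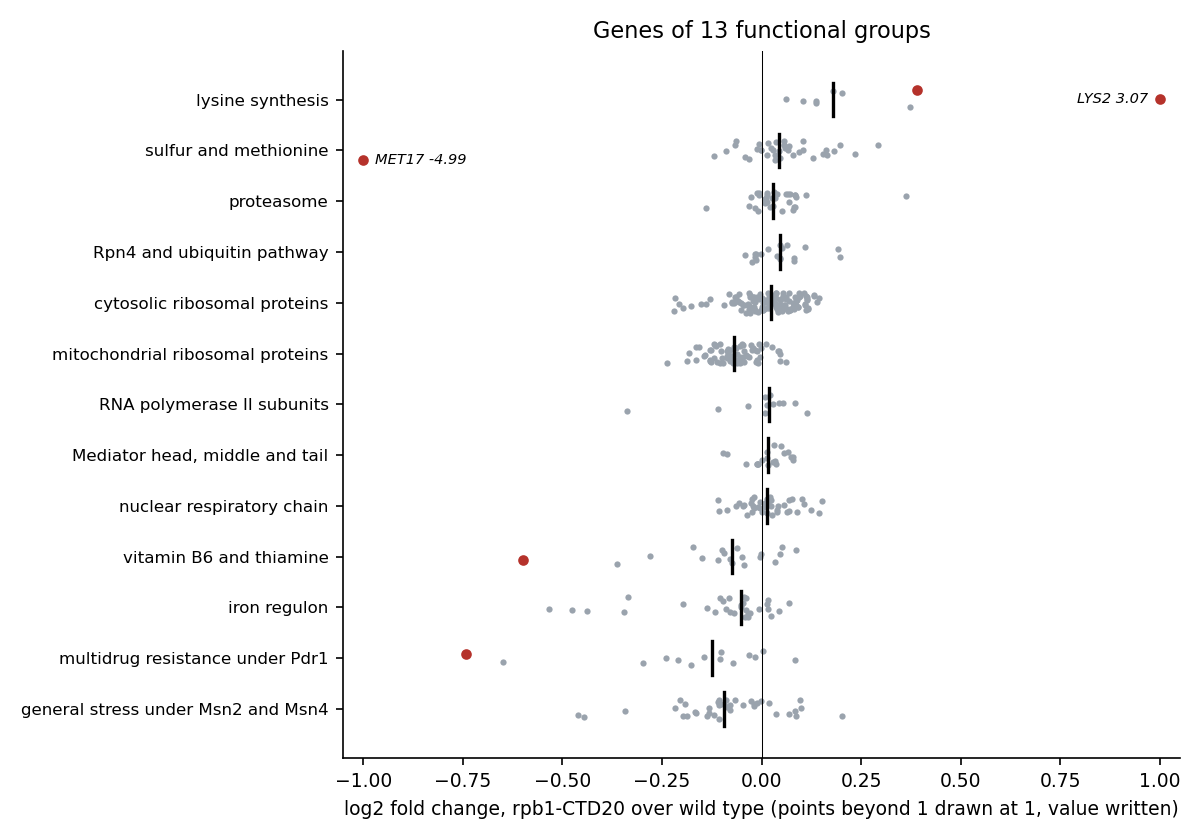
Log2 fold change of *rpb1-CTD20* over wild type for the genes of 13 functional groups; each point is a gene, red where the adjusted p was under 0.01, and the black bar is the group's median. Lysine synthesis lies to the right of 0 for all 9 genes. On the curve through the spiked-in controls it does so for 3 of 9, against 245 of all 6388 probes. Pdr1 targets and mitochondrial ribosomal proteins lie mostly to the left, with medians of -0.12 and -0.07.

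The groups tied to the CTD itself moved little. Apart from *RPO21*, the RNAPII subunits had changes between -0.11 (*RPB10*) and 0.11 (*RPB11*), and none of the 12 passed. None of 21 Mediator genes, 4 genes of the Cdk8 module and 21 general initiation factors passed either. Nor did any of 13 genes listed with CTD kinases and phosphatases or of 24 capping, elongation and 3′ end factors. Over all probes 0.376% passed, so that lists of this size would hold few or none. The lists overlap at *SSN3*, *KIN28* and *CCL1*. At an unadjusted p under 0.05 there was 1 RNAPII subunit each way. Also higher were 1 Mediator gene, 1 initiation factor and 3 members of the list of capping, elongation and 3′ end factors. From the list of kinases and phosphatases *SSU72* and *PTA1* were higher and *RTR1* was lower, and *PTA1* is a 3′ end factor, not a kinase or phosphatase. *SSU72*, a CTD phosphatase, was nearest with 0.26 and 0.25 in *rpb1-CTD20*, against -0.09 to 0.15 in wild type (difference 0.25, adjusted p = 0.026). The proteasome, 33 genes, had a median of 0.03 in *rpb1-CTD20*, 0.10 in *rpb1-CTD13* and 0.50 and 0.83 with 12 and 11 repeats, and no member passed with 20 repeats, where 2 were higher and 1 lower at an unadjusted p under 0.05. The 128 probes listed as cytosolic ribosomal proteins had a median of 0.02, which was 0.14 relative to all genes on the curve through the spiked-in controls and 0.12 with median centring. Many were nearly saturated: 67 remained without such spots, with a median of 0.05. The list also took in *RPP1*, of RNase P, and *RPL9B* and *RPL35A* are repeated in it. The 18 transcripts of the mitochondrial genome had a median of 0.02, with none at an unadjusted p under 0.05.

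*RPO21*, the truncated gene, had -0.05 and -0.19 in *rpb1-CTD20*, against -0.19 to 0.56 in wild type, with a median of 0.25. The groups overlapped and the difference of -0.34 did not pass (SE 0.14, adjusted p = 0.29). Where the probe lies in the gene is not given in the sources used here, so that its value does not check the truncation. *RPO21* had -0.90 and -0.60 in *RPB1-CTDWT* and -1.38 and -1.33 in *rpb1-CTD13*. It was 1.23 higher in *rpb1-CTD20* than in *rpb1-CTD13* (SE 0.18, adjusted p = 0.00042), and its difference of 0.63 from *RPB1-CTDWT* did not pass (SE 0.18, adjusted p = 0.44).

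Set directly against *RPB1-CTDWT*, with no wild type array in the contrast, *rpb1-CTD20* had 2 called probes (0.0313%), *LYS2* at 3.04 and *MET17* at -5.11. At the adjusted p alone, *ENA2*, SCAB001049, *CTP1* and *LYS9* were also higher. Between the 2 strains 376 probes (5.89%) had an unadjusted p under 0.05, 225 higher (3.52%) and 151 lower (2.36%) in *rpb1-CTD20*.

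Against *rpb1-CTD13*, 14 probes were called (0.219%), 7 in each direction (0.11%). At the adjusted p alone 99 passed (1.55%), 73 higher (1.14%) and 26 lower (0.407%), and at an unadjusted p under 0.05 there were 996 (15.6%), 591 higher (9.25%) and 405 lower (6.34%). Besides *RPO21* and *ENA2*, the genes higher in *rpb1-CTD20* were *YRO2*, a membrane protein of the stress response, *YHB1*, the flavohemoglobin that removes nitric oxide, *SNZ3* and *DCG1*, of unknown function. *YRO2* had -0.30 and -0.12 in *rpb1-CTD20*, against -1.31 and -1.30 in *rpb1-CTD13*, and *YHB1* had -0.88 and -0.77, against -1.61 and -1.69 in *rpb1-CTD13*. *DCG1* had -0.13 and 0.07 in *rpb1-CTD20*, within the wild type range of -0.15 to 0.23, against -0.92 and -0.94 in *rpb1-CTD13*. The genes lower in *rpb1-CTD20* were *FIT3*, *PDR15*, the *ASP3* probes and SCAB004239. The call of *YRO2* was lost in 5 of 9 alternatives, and those of *YHB1*, *PDR15* and SCAB004239 in 6 of 9. *FIT3* had -0.83 and -0.83 in *rpb1-CTD20*, against 0.56 and 0.42 in *rpb1-CTD13*, with wild type between them at -0.66 to 0.01. *LYS2* and *MET17* did not pass between the 2 truncations, with differences of 0.42 and -0.39 (SE 0.16 and 0.10, adjusted p = 0.18 and 0.03).

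The 11 probes of the *LYS2*, *MET17*, *ASP3* and *ENA* loci, chosen after the values were seen, include every probe called against wild type. Leaving them out therefore takes away all calls by choice, and the 0 probes that limma then called are no test. At an unadjusted p under 0.05 there were 844. At the adjusted p alone 9 passed, 6 higher and 3 lower in *rpb1-CTD20*.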

How the data were processed

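The deposited scanner files give the mean intensity of each spot and of its local background in both channels, and were not normalized by the authors. The authors' deposited table of log2 ratios, 1 per spot, was made with print-tip loess, and the submitters' processing notes name limma 2.12.0. Its columns had medians of -0.00938 to 0.0158 and correlated with the scanner ratios at 0.667 to 0.951, and it served as an alternative. Each array carries 15552 spots: 12776 for genes, 1872 for 14 spiked-in controls and 904 empty. Of 6388 gene probes, 5326 have 1 gene name, all found in RefSeq R64, and 1062 have none. Probes of genes with near-identical copies may not be separate measurements.

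Here normexp (offset 50) removed the background, and a global loess curve with span 0.3 and control spots at weight 0 normalized every array. Ratios were turned to sample over reference and averaged over the spots of a probe. For the dyes the sample labels were followed, from which the series' design text differs. One limma model (version 3.58.1, R 4.3.3) over the 24 arrays held a coefficient for each group and one for the dye. Letters a and b mark the dye in all 2-array groups, which makes the dye term the replicate block too. The a minus b differences of 2 groups correlated at 0.621 to 0.927 over 28 pairs, and at -0.369 to 0.263 without the dye effect. The dye effect was fitted on these same arrays, so that taking it out lowers the correlation by construction. Whether wild type arrays that share a k label share a culture is not given in the sources used here, so their p values may measure technical spread, and the number of arrays limits the precision. The model's script was tested on simulated data.

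Alternatives changed the background correction, the normalization, the filter on dim or saturated spots, the dye term, the wild type arrays used and single arrays. Named are all called probes, up to 15 named genes each way past the adjusted p with both arrays outside the wild type range, the strain markers, up to 4 genes per list by lowest p, and genes called against *RPB1-CTDWT* or *rpb1-CTD13*; further lysine genes, neighbours of loci, *PHO84* and Ty genes were added after their values were seen. The comparison, the gene lists and this rule were chosen with earlier results of these data known.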

Additional observations from a re-analysis of the deposited data

Results flagged for a closer look

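In 2 of 69 genes examined, 1 wild type array stood apart from the other 7 by Dixon's test, where chance flags about 1 in 20 groups. In both it was array k2-a, with -0.52 for *ASP3-3* (next lowest -0.45) and 0.14 for *ENA2* (next highest 0.05), and both *rpb1-CTD20* arrays lay well outside it.

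For these genes *rpb1-CTD20* was called in the direct contrast with *RPB1-CTDWT* or *rpb1-CTD13*, and which difference between the strains this reflects was not tested. *rpb1-CTD20* minus *RPB1-CTDWT* was 3.04 for *LYS2* and -5.11 for *MET17*, both strain markers. *rpb1-CTD20* minus *rpb1-CTD13* was 1.23 for *RPO21*, 1.09 for *YRO2*, 0.90 for *DCG1*, 0.89 for SCAB005193, 0.83 for *YHB1*, 0.82 for *SNZ3* and 0.81 for *ENA2*. It was -1.32 for *FIT3*, -1.20 for *ASP3-3*, -1.18 for SCAB004047, -1.10 for SCAB004042, -1.07 for SCAB004045, -0.84 for SCAB004239 and -0.83 for *PDR15*. The calls of *YRO2* (5 of 9 alternatives), *YHB1*, *PDR15* and SCAB004239 (6 of 9 each) were lost in many of the alternatives run.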

How the results depend on the processing

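Every alternative kept those of the 6 called probes that it tested. The filter on background left out *MET17*, so that 5 remained, and the fit without the *LYS2*, *MET17*, *ASP3* and *ENA* loci left out all 6. The main counts were 1 increased, 5 decreased and 24 past the adjusted p. Median centring gave 3 increased, 37.5% of those called against 16.7%. Without the replicate block (the dye term) 15 passed the adjusted p, and 8 were called against *rpb1-CTD13* instead of 14. With the k1 arrays alone as wild type, 18 decreased and 86 passed; with k2 alone, 30 and 59; with k3 alone, 2 increased and 8 decreased. With the k label as a random block, 19 of the 24 remained and the 6 calls were kept. With wild type labelled 330 rpm as control, although its growth protocol gives another speed, 9 increased, 18 decreased and 235 passed. The curve through the spiked-in controls, added after the data were seen, left 8 past the adjusted p and turned *CTP1* to -0.085, *SIR2* to -0.070, *CRD1* to -0.11, SCAB003287 to -0.047, *TDA4* to -0.19 and *GAS2* to -0.014. The median of all genes was -0.32 on that curve, below all of these values. Without the probes of the 4 loci, which include every called probe, 0 increased and 0 decreased as a result of that choice, and 9 passed. Leaving out 1 array at a time gave 1 to 2 increased, 5 to 7 decreased and 14 to 32 past the adjusted p (14 without *rpb1-CTD20* array b), 2 to 5 called against *RPB1-CTDWT* (4 without *rpb1-CTD20* array a, 5 without *RPB1-CTDWT* array b) and 10 to 13 against *rpb1-CTD13*. The level against the spiked-in controls then ran from -0.42 (without *rpb1-CTD20* array b) to 0.54 (without array a). Both values set 1 array in 1 dye against wild type arrays in both dyes, and so hold the difference between the dyes. Within a dye the level differed by -0.12 in Cy3 (array a) and 0.24 in Cy5 (array b), so its sign differed between the 2 arrays. Of the 24 probes, 8 passed in every alternative that tested them: *LYS2*, *MET17*, *ASP3-3*, SCAB004042, SCAB004045, SCAB004046, SCAB004047 and *YTP1*. *PDR15* and *YLR031W* lost the call in 14 and 15 of 26 alternatives, *CRD1* and *TDA4* in 17 and 20. The cause of these changes was not tested. Faint probes are limited by array b of *rpb1-CTD20*, where 86.1% were above background.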

Other observations

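Retrotransposon transcripts were among the larger differences that did not pass. 15 probes match open reading frames of the Ty1 and Ty2 elements, mobile elements present in many near-identical copies, so that these probes are not separate measurements, and they were picked after their values were seen. All 15 were below 0 in *rpb1-CTD20* relative to wild type, with values between -0.77 and -0.03 around a median of -0.56. Of these 10 had an unadjusted p under 0.05 and none passed the adjusted p. *YDR170W-A*, a Ty1 coat protein gene, had -0.67 and -0.71 in *rpb1-CTD20*, against -0.53 to 0.78 in wild type (difference -0.77, SE 0.22, adjusted p = 0.094). The wild type arrays themselves spread widely, with medians over the 15 probes of 0.70 on k2-a and 0.19 on k2-b, 0.00 to 0.27 on the 4 k1 arrays and -0.31 and -0.20 on the k3 arrays. *rpb1-CTD20* had -0.31 and -0.21, beside the k3 arrays. The median change was -0.42 in *RPB1-CTDWT* and -0.44 in *rpb1-CTD13*, with the wild type control in common. The brightest probes had the values nearest 0, such as *YGR161C-D* at -0.06 (26160 in *rpb1-CTD20*, against 32260 in wild type).

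*PHO84*, the high-affinity phosphate transporter, had -1.41 and -1.25 in *rpb1-CTD20*, against -2.35 to -1.61 in wild type, a difference of 0.70 that did not pass (SE 0.18, adjusted p = 0.08). It lay above every wild type array on both arrays. The next genes to *LYS2* and near *MET17* in the RefSeq gene order, *TKL2*, a transketolase, and *ACO1*, aconitase, each lay below every wild type array, with differences of -0.36 and -0.36 (adjusted p = 0.026 and 0.033). *TKL2* also had -0.36 in *rpb1-CTD13*, while *ACO1* had 0.05 there.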
